A study of Mus musculus with 5 samples.

Results

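The sodium-potassium and calcium pump genes examined here were Atp1b1, Atp1b2 and Atp1b3, which encode the beta subunits of the Na,K-ATPase, Atp2a2, which encodes a calcium pump of the endoplasmic reticulum (SERCA), and Atp2b1, Atp2b2 and Atp2b3, which encode calcium pumps of the plasma membrane (PMCA). These 7 genes were taken by symbol from the 53700 gene IDs of the count table, and all 7 were present. Their IDs there are ENSMUSG00000026576.13 (Atp1b1, chromosome 1), ENSMUSG00000041329.14 (Atp1b2, chromosome 11), ENSMUSG00000032412.9 (Atp1b3, chromosome 9), ENSMUSG00000029467.16 (Atp2a2, chromosome 5), ENSMUSG00000019943.11 (Atp2b1, chromosome 10), ENSMUSG00000030302.17 (Atp2b2, chromosome 6) and ENSMUSG00000031376.16 (Atp2b3, chromosome X). Ribosome-bound RNA was purified by BAC-TRAP, in which a ribosomal protein, L10a, fused to EGFP is pulled down with the mRNA attached to it. All C57BL/6 mice carried the L10a transgene, were 4 months old and had received AAV:THCre in the midbrain, so that a tyrosine hydroxylase promoter drove Cre in dopaminergic (DAergic) neurons. The L10a;Esrrg WT group had 3 libraries (replicates 2, 3 and 4) and the L10a;Esrrg Flox group, in which Cre removes exon 2 of Esrrg (the gene of estrogen-related receptor gamma, ERRγ), had 2 libraries (replicates 2 and 4), each from pooled midbrains taken 1 month after deletion. Deletion is limited to cells that the virus reaches, and the pools leave the variation between single mice unmeasured.

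The Na,K-ATPase exports sodium and imports potassium at the cost of ATP, and so restores the gradients that action potentials run down. Its alpha subunit splits ATP, while the beta subunit is needed to fold the complex and bring it to the membrane. SERCA returns calcium to the endoplasmic reticulum, and the PMCAs expel it from the cell with high affinity and under the control of calmodulin. DAergic neurons of the substantia nigra fire spontaneously and admit calcium as they do so, which is why these pumps are regarded as large users of ATP in such cells. The question addressed was whether the mRNAs of these pumps differed after loss of Esrrg, a regulator of genes of mitochondrial energy production.

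SERCA and the PMCAs are P-type ATPases, which pass through an intermediate phosphorylated on an aspartate. The stretch of coding sequence around that aspartate is shown for Atp2b3, the pump gene that was called, and for Atp2b1, the PMCA gene with the largest fold change in the other direction, because this stretch is strongly conserved among P-type ATPases and shows how far related genes differ even there. The codon of the phosphorylated aspartate is in capitals. Sequences are from GENCODE M21 transcripts and read 5′ to 3′ on the coding strand.
Atp2b1: atctgttcaGATaaaacaggaaccctg
Atp2b3: atctgttctGACaagacgggcacactc
Each lies within 1 coding exon. On GRCm38 these are chr10:98999808-98999834 (exon 10 of Atp2b1) and chrX:73536954-73536980 (exon 10 of Atp2b3), both on the plus strand, with exons numbered in the transcript that has the longest coding sequence. The sequences differed at 7 of the 27 bases, each the last base of a codon, and both encode the same residues. Few reads could be shared between PMCA genes, since 0.166% of the 50-base stretches in Atp2b3 transcripts also occurred in transcripts of another gene, and 0.055% of those in Atp2b2. Such sharing was larger for Atp1b1 (15.8%, foremost with Nme7), Atp1b3 (9.71%), Atp2a2 (3.93%) and Atp2b1 (1.27%), and was 0 for Atp1b2. Atp1b1 overlaps Nme7, the libraries do not keep strand and reads that fall on both genes were left out, so the counts of Atp1b1 are uncertain.

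The libraries held between 20635855 and 23105058 assigned counts. No pair agreed within counting noise, with a chi-square statistic per degree of freedom from 4.25 to 45.8. Esrrg itself had 1763, 1643 and 1726 normalized counts in WT against 1504 and 1170.1 in Flox (log2 fold change -0.35 with SE 0.13, adjusted p = 0.0753 in DESeq2), although reads of the remaining exons still count toward this gene. DAergic markers had counts in every library (Th between 9849 and 12813 normalized counts), and their summed level was 2473 to 2829 CPM (counts per 1000000 assigned counts) in WT and 2453 to 2494 in Flox, with 1 of 11 called lower (Ret) and 0 higher. In DESeq2, 3 of the 11 had an unadjusted p below 0.05 (Ret and Slc6a3 lower, Ddc higher). Astrocyte RNA was abundant as well, at 3479 to 4919 CPM over 9 markers in WT and 3589 to 4514 in Flox, with 0 of 9 called in DESeq2, of which 1 had an unadjusted p below 0.05. Microglial markers were at 69.6 to 136 CPM in WT and 237 to 491 in Flox, and 10 of 12 were higher. Endothelial markers were scarce, at 5.24 to 11.8 CPM in WT and 12.2 to 29.8 in Flox, and 3 of the 7 with an adjusted p were higher (Cldn5, Flt1 and Slco1a4). Of 6 markers of GABAergic neurons, 1 was lower (Gad2, log2 fold change -0.35) and 1 higher (Sst, 0.54), and their sum was 1449 to 1512 CPM in WT and 1301 to 1438 in Flox. By DESeq2, 3 of these 6 had an unadjusted p below 0.05. Of 8 oligodendrocyte and 3 glutamatergic markers, 0 were called in DESeq2, also at an unadjusted p below 0.05. The glutamatergic marker Slc17a7 differed widely within groups. It had 2974, 2772 and 390 normalized counts in WT (replicates 2, 3 and 4) and 2303 and 800 in Flox (replicates 2 and 4). Slc17a8 also varied, with 210 to 410 in WT and 105 and 354 in Flox, while Slc17a6 lay between 3526 and 4301. The part of these cell types in the values of the pump genes, Atp2b3 included, was not tested. RNA of other cell types was thus measured beside that of DAergic neurons, and in such samples fewer cells of a type cannot be told apart from less RNA per cell.

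One pump gene changed. Atp2b3, which encodes PMCA3, fell by 44.2% in Esrrg Flox. The other 6 genes did not pass the test. Atp1b1 was at a lower level in both Flox libraries than in any WT library, as were 22.5% of all genes tested. Atp1b3 was at a higher level in both, as were 19.9%. Thus 1 of 7 genes was called (lower), where 8.25% of the 15724 genes tested were called in either direction, 4.2% higher and 4.05% lower. With a fold change of at least 1.5 as well, 1 of 7 was called (lower), against 3.18% of all genes in either direction, 1.77% higher and 1.41% lower. An unadjusted p below 0.05 was found for 3 of the 7 genes and for 20.3% of all genes. The median log2 fold change of the 7 genes was -0.095, and that of all genes tested was -0.0063. A single call among 7 genes is no result about the pumps as a group.

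**Figure D1:**
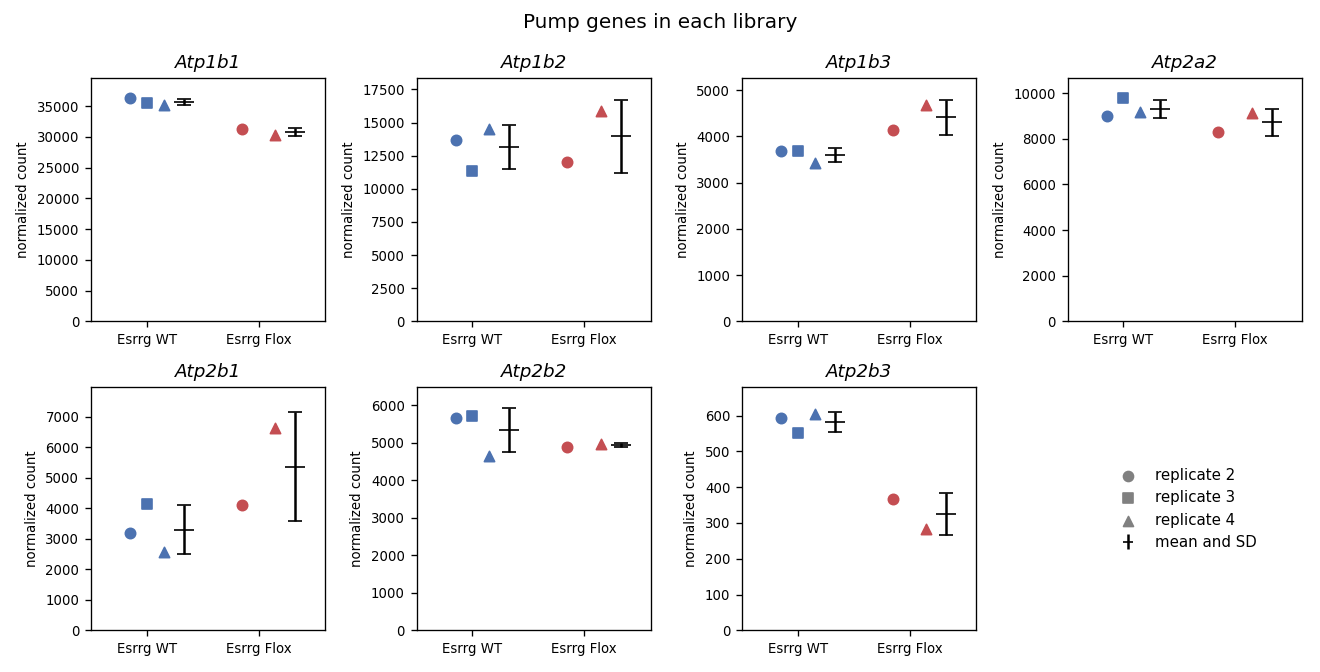
Normalized counts (counts divided by the size factor of the library, linear axes from 0) of the 7 pump genes in 3 Esrrg WT libraries (blue) and 2 Esrrg Flox libraries (red). Marker shapes give the replicate number and black bars the mean and SD. Atp2b3 lay at 551 to 604 in WT and at 284 and 367 in Flox.

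The level of each gene in WT was compared as CPM per kilobase of annotated exon (CPM per kb), because a longer gene collects more reads. Atp1b1 stood first at 531 ± 14.1 CPM per kb (SD, n = 3), above 99.6% of the 15707 genes tested that had an exon length. Atp1b2 followed at 148 ± 16.4. Atp2a2 (70.2 ± 3.91) and Atp1b3 (69.1 ± 3.87) came next and did not differ beyond their spread. The PMCA genes were lower, at 19.4 ± 2.44 for Atp2b2, 9.97 ± 2.56 for Atp2b1 and 5.55 ± 0.197 for Atp2b3, and the WT ranges of these 3 genes did not overlap. In Flox, Atp2b3 was again the lowest (3.03 ± 0.614, n = 2), while Atp2b1 (12.3 and 19.1) overlapped with Atp2b2 (17.6 and 17.3). Atp2b3 thus fell from the lowest level of the 7 genes, and in WT it stood above 57.8% of genes.

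Among the beta subunits, Atp1b1 encodes beta1, the main partner of alpha subunits in neurons. Its normalized counts were 36293, 35585 and 35244 in WT (replicates 2, 3 and 4) and 31286 and 30309 in Flox (replicates 2 and 4). Both Flox libraries were below the WT libraries, and the WT libraries differed little among themselves. An arrangement without overlap, in either direction, was found in 42.4% of all genes tested, and both Flox libraries were below all WT libraries in 22.5%. The log2 fold change of Atp1b1 was -0.21 (SE 0.086, 95% interval -0.38 to -0.045), a level 13.8% lower that did not pass after adjustment (DESeq2 adjusted p = 0.107). Over the 10 alternative settings the log2 fold change stayed between -0.24 and -0.19 and the adjusted p between 0.0746 and 0.769.

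Atp1b2 encodes beta2, which was first described as an adhesion molecule on glia. It had 13660, 11331 and 14509 normalized counts in WT against 12014 and 15894 in Flox. The groups overlapped, and within each group the library numbered 4 was the highest. The log2 fold change was 0.084 (SE 0.14, 95% interval -0.20 to 0.37, DESeq2 adjusted p = 0.830), and its sign depended on the libraries used, at -0.14 when Flox replicate 4 was left out and 0.27 when Flox replicate 2 was. The summed level of the astrocyte markers was likewise higher in the libraries numbered 4, with 4919 CPM against 4067 and 3479 in WT and 4514 against 3589 in Flox. So was that of the oligodendrocyte markers, with 7349 CPM against 5311 and 5127 in WT and 6595 against 5724 in Flox. The part of these cells in the Atp1b2 counts was not tested.

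Atp1b3 encodes beta3, a widely expressed subunit. It had 3694, 3677 and 3428 normalized counts in WT against 4137 and 4682 in Flox, so that the WT libraries all lay under both Flox libraries, an arrangement found in 19.9% of all genes tested. The level was 22.5% higher (log2 fold change 0.29, SE 0.11, 95% interval 0.085 to 0.50) and just missed the threshold (DESeq2 adjusted p = 0.0619). It passed with a filter on low counts (adjusted p = 0.0474) and without Flox replicate 2 (0.0431), and was at 0.834 without Flox replicate 4. Over the 10 alternatives the adjusted p thus ran from 0.0431 to 0.834, and the direction did not change.

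As a share of the counts per kb of these 3 beta subunits, Atp1b1 made up 70.7%, 72.8% and 69.6% in WT and 68.5% and 62.7% in Flox. Atp1b3 made up 9.28%, 9.70% and 8.74% in WT and 11.7% and 12.5% in Flox. These shares do not depend on the size factors, and in both the Flox libraries lay outside the range of the WT libraries. Shares within a sum depend on each other. The sum of the beta subunits was 748 ± 16.2 CPM per kb in WT and 683 ± 11.2 in Flox, with both Flox libraries (675 and 691) below the lowest WT library (738). Most of this sum was Atp1b1, which did not pass and whose counts are uncertain. By normalized counts, the groups did not overlap in 42.4% of all genes tested. No test is reported for these shares or their sum.

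SERCA was represented almost completely by Atp2a2, which held between 98.1% and 99.0% of the SERCA counts per kb in each library. Atp2a2 had 8997, 9769 and 9154 normalized counts in WT against 8288 and 9137 in Flox. Flox replicate 2 was the lowest library, whereas Flox replicate 4 lay between WT replicates 2 and 4, so that the groups overlapped. The log2 fold change was -0.095 (SE 0.099, 95% interval -0.29 to 0.099, DESeq2 adjusted p = 0.679). A fall larger than 0.29 on the log2 scale thus lay outside the interval of this comparison.

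Of the PMCA genes examined, 1 of 3 passed the test. Atp2b1 encodes PMCA1, the widely expressed isoform. It had 3193, 4145 and 2561 normalized counts in WT against 4105 and 6617 in Flox. The first Flox library lay within the WT range, just under WT replicate 3, and Flox replicate 4 stood far above all others. The log2 fold change of 0.70 (SE 0.36, 95% interval -0.0081 to 1.41) did not pass (DESeq2 adjusted p = 0.254), and was 0.31 when Flox replicate 4 was left out and 1.00 when Flox replicate 2 was. The adjusted p ran from 0.0885 to 0.991 over the 10 alternatives.

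Atp2b2 encodes PMCA2, an isoform largely restricted to neurons and sensory cells. It had 5649, 5703 and 4648 normalized counts in WT against 4887 and 4969 in Flox. Both Flox libraries were inside the WT range. The log2 fold change was -0.11 (SE 0.12, 95% interval -0.35 to 0.12, DESeq2 adjusted p = 0.676).

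Atp2b3 encodes PMCA3, an isoform expressed mainly in neurons from a gene on the X chromosome. It had 594, 551 and 604 normalized counts in WT against 367 and 284 in Flox. The highest Flox library was well under the lowest WT library, and the gap between the groups was wider than the spread within either. Means were 583 ± 28.1 (SD, n = 3) and 326 ± 58.4 (SD, n = 2), for a log2 fold change of -0.84 (SE 0.16, 95% interval -1.16 to -0.52, DESeq2 adjusted p = 5.7e-05). It was called in 9 of the 10 alternatives, with edgeR's quasi-likelihood test nearest to the threshold among these (adjusted p = 0.0436), and its adjusted p ran from 4.6e-05 to 0.0774. The exception was the fit without Flox replicate 4, where the log2 fold change was -0.67. When Flox replicate 2 was left out it was -1.04. In either of these fits the remaining Flox library is assumed to vary as the WT libraries do. From highest to lowest, the libraries for Atp2b3 ran WT replicate 4, WT replicate 2, WT replicate 3, Flox replicate 2 and Flox replicate 4. The summed microglial markers and the summed endothelial markers ran in the reverse order. Their part in the fall of Atp2b3 was not tested.

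**Figure D2:**
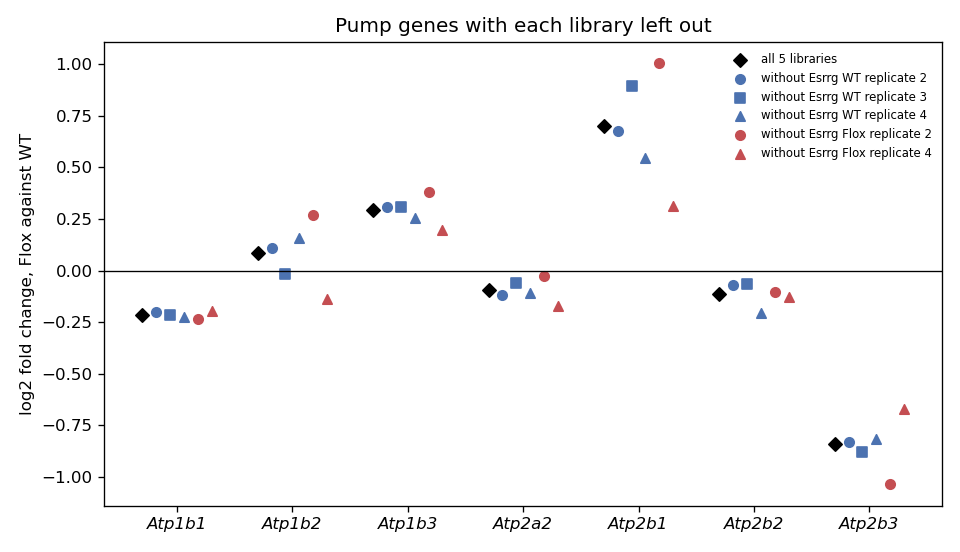
Log2 fold change (Esrrg Flox against Esrrg WT, DESeq2) of each pump gene with all 5 libraries (black diamonds) and with each library left out in turn (blue, a WT library left out, and red, a Flox library left out). Atp2b3 ran from -1.04 to -0.67, Atp1b1 stayed near -0.21, and Atp2b1 moved from 0.31 to 1.00 with the Flox library that was left out.

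Together, the 4 PMCA genes (Atp2b4, which encodes PMCA4, included) had a summed level of 39.0 ± 4.93 CPM per kb in WT and 39.5 ± 3.70 in Flox, so the sum differed by less than the spread between libraries. The shares within the sum differed. Atp2b3 made up 14.2%, 12.3% and 16.8% of PMCA counts per kb in WT and 9.39% and 6.16% in Flox. Atp2b1 made up 24.1%, 29.3% and 22.6% in WT and 33.3% and 45.4% in Flox. For both genes the Flox libraries lay outside the WT range, and Flox replicate 4 was the more extreme. Atp2b2 held 51.5%, 48.6% and 49.4% in WT and 47.8% and 41.1% in Flox, also without overlap. Shares within a sum depend on each other, so a larger share of Atp2b1 lowers the others by itself. The level of Atp2b2 per kb in Flox (17.6 and 17.3) lay inside its WT range (16.6 to 21.0). By normalized counts, 42.4% of all genes tested had no overlap between the groups. Atp2b4 held between 9.84% and 11.2% in WT and 9.60% and 7.29% in Flox, and its own log2 fold change of -0.26 (SE 0.12) did not pass (DESeq2 adjusted p = 0.211). For these shares an exact two-sided rank test cannot give a p below 0.2 in this design, and no test is reported. Microglial markers were also highest in Flox replicate 4 (491 CPM against 237 in Flox replicate 2), and their part in these shares was not tested.

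**Figure D3:**
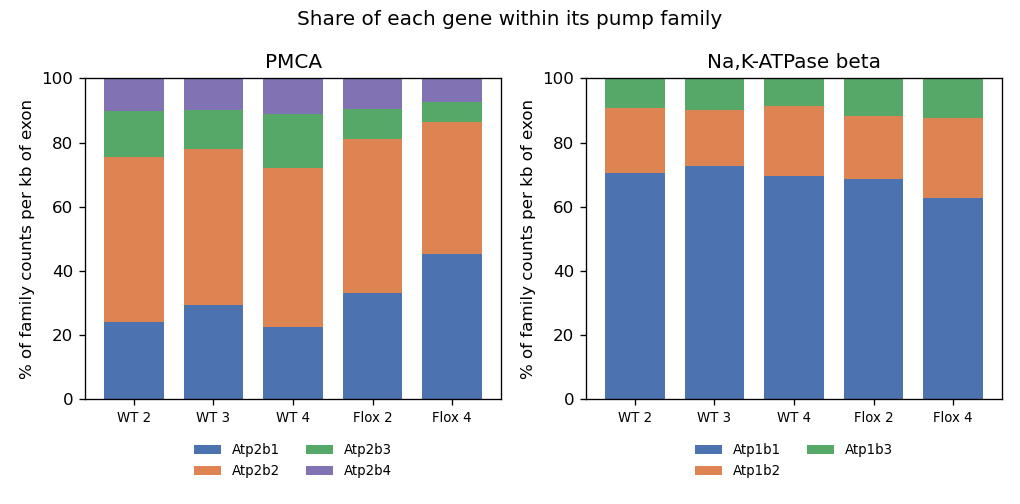
Share of each gene in the counts per kilobase of exon of its family (percent, bars stacked to 100) for the PMCA genes and the Na,K-ATPase beta subunits in each of the 5 libraries. The share of Atp2b3 was 12.3% to 16.8% in WT and 6.16% and 9.39% in Flox.

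How alike the profiles of the genes were was measured as the root mean square difference of centred log2 normalized counts over the 5 libraries, where 0 is the same profile. Atp1b1 and Atp2a2 were nearest to each other among the 7 genes (0.095), and Atp2b2 was nearest to Atp2a2 (0.11). Atp2b3 had no near neighbour among the pumps, the nearest being Atp1b1 (0.33), nor had Atp2b1, the nearest being Atp1b3 (0.32). The profiles are not scaled for the size of a change, so genes with large changes lie far from those with small ones. Of 35 related genes with a mean of at least 100 normalized counts, those nearest to Atp2b3 were Nkain1 (0.14), Orai2 (0.26) and Slc24a2 (0.26). With 5 libraries in 2 groups these values describe the profiles and carry no test.

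Genes that work with the pumps were then examined in 52 related genes, of which 50 were matched by symbol and 46 had an adjusted p. In DESeq2, 6 of the 46 were higher and 2 were lower, and 16 had an unadjusted p below 0.05. Over all genes these shares were 4.2% higher, 4.05% lower and 20.3% at that unadjusted p. In the group of small membrane proteins that associate with the Na,K-ATPase (FXYD and NKAIN genes), 3 of 9 were higher (Fxyd5, Fxyd6 and Fxyd7) and 1 was lower (Nkain1). Fxyd7, a brain FXYD protein, had 2066, 2121 and 1953 normalized counts in WT against 2902 and 2755 in Flox (log2 fold change 0.47 with SE 0.10, adjusted p = 5.7e-04 in DESeq2). The groups were well apart, and the log2 fold change without Flox replicate 4 was 0.50 (adjusted p = 0.0516). Fxyd6 was at 6351 ± 592 in WT and 7914 ± 164 in Flox (0.32 with SE 0.11, adjusted p = 0.0475 in DESeq2), and lost its call in 8 of 10 alternatives, with adjusted p up to 0.428. Fxyd5 was scarce, with 51.6, 57.1 and 21.1 normalized counts in WT against 120.1 and 221 in Flox (1.98 with SE 0.40, adjusted p = 1.3e-04 in DESeq2). It was called in all 8 alternatives in which it had an adjusted p. The fits without WT replicate 4 and without Flox replicate 4 gave it none, so its call could not be checked there. The order of the libraries for Fxyd5 was the same as for the summed microglial markers and the summed endothelial markers, namely WT replicate 4, WT replicate 2, WT replicate 3, Flox replicate 2 and Flox replicate 4, and their part in its rise was not tested.

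Nkain1, which encodes a protein that binds the beta1 subunit, had 692, 599 and 796 normalized counts in WT against 517 and 375 in Flox (log2 fold change -0.64 with SE 0.18, adjusted p = 0.0108 in DESeq2). Both Flox libraries were below the WT libraries. The libraries ran in the order of Atp2b3, the reverse of Fxyd5, and the part of other cell types was not tested for Nkain1. It was called in 6 of 10 alternatives, not with edgeR (adjusted p = 0.0699) and not without Flox replicate 4 (0.593).

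Of the calcium ATPases that were not among the 7 genes, 0 of 4 passed in DESeq2, 2 of them with an unadjusted p below 0.05. Atp2c1, the calcium pump of the Golgi, had the highest counts of them, with 1616 ± 53.9 normalized counts in WT against 1486 ± 26.9 in Flox (log2 fold change -0.12 with SE 0.11, adjusted p = 0.607 in DESeq2). Small proteins that regulate SERCA were close to absent, and the highest of the 3 matched, Mrln, had between 10.5 and 19.9 normalized counts (DESeq2 adjusted p = 0.709).

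Among partners of the PMCAs, Calm2, a calmodulin gene, was higher, with 50030, 53295 and 51515 normalized counts in WT against 59648 and 69658 in Flox (log2 fold change 0.32 with SE 0.10, adjusted p = 0.0268 in DESeq2). Calm3 (-0.13, adjusted p = 0.532) did not pass, nor did Nptn (0.10, adjusted p = 0.701) and Bsg (0.28, adjusted p = 0.117), which encode membrane proteins that associate with PMCAs, all by DESeq2. Reads of Calm2 can be shared with processed pseudogenes (9.72% of its 50-base stretches occur in other genes), and its call was kept in 5 of 10 alternatives. Of 8 sodium-calcium exchangers, 1 was lower. This was Slc24a2, which encodes the potassium-dependent exchanger NCKX2 of neurons, at 4141, 4376 and 3441 normalized counts in WT against 2965 and 2828 in Flox (-0.46 with SE 0.12, adjusted p = 0.00674 in DESeq2). It kept its call in 5 of 10 alternatives. Slc24a3, also abundant in this group, was at -0.18 (DESeq2 adjusted p = 0.319).

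Of 11 genes for calcium release and store-operated entry, 1 was higher, Itpr2, an inositol trisphosphate receptor that is prominent in glia, with 304, 274 and 299 normalized counts in WT against 371 and 475 in Flox (log2 fold change 0.53 with SE 0.18, adjusted p = 0.0381 in DESeq2, kept in 3 of 10 alternatives). Stim1, with the highest mean normalized count of that list though not the highest level per kb, was at -0.080 (DESeq2 adjusted p = 0.785). Of 6 genes of the mitochondrial calcium uniporter 0 passed in DESeq2, 1 of them with an unadjusted p below 0.05, and Smdt1, with the highest mean normalized count, was at 0.21 (adjusted p = 0.151). Of 3 calcium buffers 1 was higher, Calb2 (calretinin), with 12574, 11806 and 12971 normalized counts in WT against 16451 and 20703 in Flox (0.58 with SE 0.12, adjusted p = 1.7e-04 in DESeq2), and its log2 fold change was 0.40 without Flox replicate 4 (adjusted p = 0.0984).

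**Figure D4:**
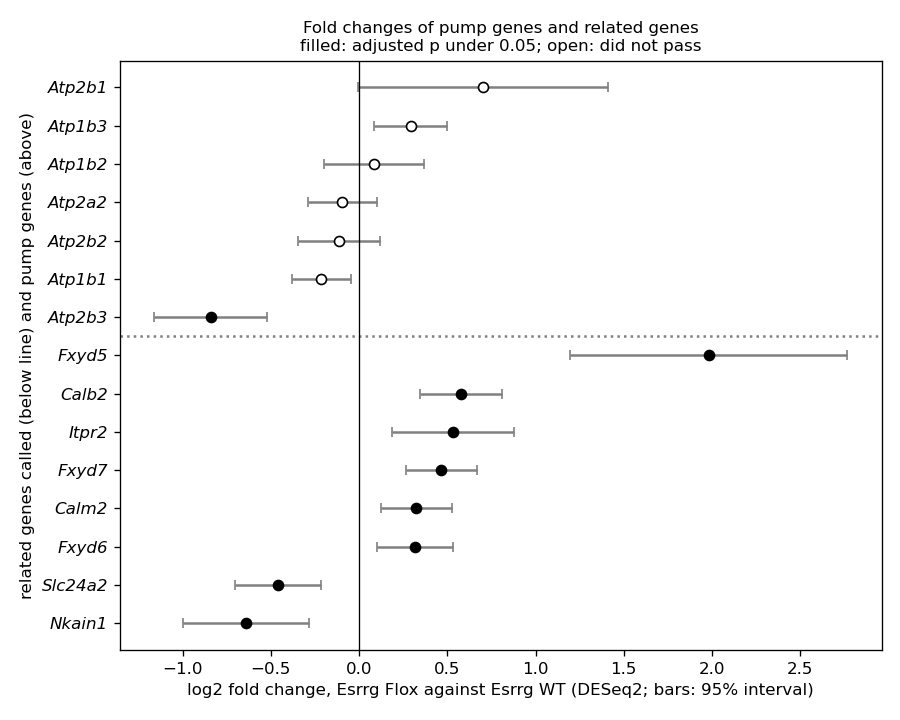
Log2 fold change (Esrrg Flox against Esrrg WT, DESeq2) with its 95% interval for the 7 pump genes (above the dotted line) and the 8 related genes that were called (below it). Filled points passed an adjusted p of 0.05 and open points did not. Atp2b3 at -0.84 is the filled point among the pump genes, and Fxyd5 at 1.98 lies farthest to the right.

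Promoter windows from 250 bases before to 50 after a start site were held for 4 of the 7 genes in RefSeq's GRCm38.p6 annotation (Atp1b1, Atp1b3, Atp2b1 and Atp2b2, with 8 windows in all). The core of the response element bound by ERR proteins, AAGGTCA, was searched on both strands and had no match in these 8 windows, against 4.72% of 32851 windows over all genes. The absence says only that these letters do not occur in these windows. Windows for Atp1b2, Atp2a2 and Atp2b3 were not analysed here.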

How the data were processed

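Paired-end libraries, poly(A)-selected and without strand information, were trimmed and aligned with STAR by the authors, who then used HTSeq to assign reads to genes. The values deposited are raw counts for each gene and library. The study's methods name GRCm38 with GENCODE M24, whereas the submitters' processing notes name GRCm39 (STAR 2.7.9a, HTSeq 0.11.3), and the build was not settled here. Gene IDs were matched without version to GENCODE M21 on GRCm38 (52093 of 53700), which also gave exon lengths and sequences. Per library, 5.62% to 5.78% of reads overlapped more than 1 gene and 3.60% to 4.23% aligned to more than 1 place, and these are in no gene's count.

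The test was made with DESeq2 (1.42.0, R 4.3.3, two-sided Wald test), the tool of the study's methods in another version. It was fitted to the 29407 genes that had any count. Independent filtering, which drops genes with low mean counts, was on. Benjamini-Hochberg adjustment was over the 15724 genes that it kept, with a threshold of 0.05. The study's threshold also asks for a fold change of 1.5, and counts with it are given beside those without. The 10 alternatives were edgeR 4.0.16 (quasi-likelihood test), TMM library sizes, a filter of 10 counts in 2 libraries, no independent filtering, a replicate block, and each of the 5 libraries left out. The edgeR fit also used TMM library sizes and the filter of 10 counts in 2 libraries, so it differed in more than the test. The code was tested on simulated data. A count of 3 corresponded to 0.130 to 0.145 CPM, which covers counting error only. P-values measure the spread between these pools. All 7 pump genes were named, and related genes where they were called or had the highest mean normalized count of their list. Other related genes named are partners shown for comparison and were chosen after their values were seen. Some related genes and sequences are not reported here. The pump genes and the lists were chosen with earlier results of these data known.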

Additional observations from a re-analysis of the deposited data

How the results depend on the processing

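The directions of Atp1b1, Atp1b3, Atp2a2, Atp2b1, Atp2b2 and Atp2b3 were the same in all 10 alternatives. Atp1b2 changed sign in 3 (-0.027 with the replicate block, -0.015 without WT replicate 3, -0.14 without Flox replicate 4) and Th in 1 (0.026 without WT replicate 4). With a library left out these ran from -0.14 to 0.27 and from -0.16 to 0.026, and Esrrg ran from -0.55 (without Flox replicate 2, where it passed) to -0.19 (without Flox replicate 4). The number of pump genes called lower went from 1 to 0 only without Flox replicate 4 (range 0 to 1 with a library left out), and the number called higher from 0 to 1 (Atp1b3) with the filter on low counts and without Flox replicate 2 (range 0 to 1). Over all genes, calls depended strongly on the method. The 660 higher and 637 lower genes became 170 and 105 with edgeR and 33 to 778 and 39 to 807 with a library left out, the fewest without Flox replicate 4. With a fold change of at least 1.5, the 278 higher and 222 lower genes became 111 and 92 with edgeR and 14 to 442 and 34 to 455 with a library left out. Of the related genes, 6 higher and 2 lower became 3 and 0 with edgeR and 0 to 6 and 0 to 3 with a library left out, and 4 were higher without independent filtering. At an unadjusted p below 0.05, edgeR gave 16 related genes.

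The replicate numbers 2 and 4 occur in both groups. Deviations from the group means correlated at 0.093 and 0.087 between libraries of the same number, over 16711 genes. With 2 Flox libraries, their deviations are negatives of each other, so these values cannot settle whether the numbers mark pairs. In both groups the libraries numbered 4 were highest in the summed astrocyte and oligodendrocyte markers. The numbers were not treated as pairs in the main fit. With the replicate block, 221 genes were higher and 255 lower (95 and 136 with the fold change), 4 related genes were higher and 1 lower, and the adjusted p of Atp2b3 was 0.0112 in DESeq2.

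The median log2 fold change of the pump genes (-0.095) ran from -0.14 to -0.027 with a library left out. Those of the markers ran from -0.17 to -0.0027 (DAergic neurons, the latter without WT replicate 4), from -0.27 to -0.12 (GABAergic neurons), from -1.35 to 0.17 (glutamatergic neurons) and from 1.06 to 2.10 (microglia), the ends of these last 3 ranges being the fits without 1 of the Flox libraries. They ran from -0.20 to 0.15 for astrocytes, from -0.12 to 0.23 for oligodendrocytes and from 0.66 to 1.82 for endothelium. The cause of these changes was not tested. With 2 Flox libraries, the number of libraries limits every comparison. The scarcest pump gene, Atp2b3, had at least 284 normalized counts in each library.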
